A study of Solanum tuberosum with 12 samples.

Results

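The short potato miRNAs numbered from miR7979 to miR8051, without miR8006, were followed in tubers of 4 potato (Solanum tuberosum) cultivars. An entry of the deposited miRNA table was taken when its name held a number of that range, with the potato prefix stu- or an ending -x or -y, and its sequence was 22 nt or shorter. The rule gave 75 distinct sequences under 88 entries, of 5730 distinct sequences under 7827 entries in the whole table, and it used no count. Of the 75 sequences, 30 carry a potato name and 45 a name ending in -x or -y, and the meaning of these endings is not given in the sources used here. The cultivars were LK99, Black kingkong, Longshu No.7 and Red beauty, each with 3 small RNA libraries of tubers aged 150 days that were grown under the same field conditions, with no treatment or introduced allele named. The series concerns miRNAs of anthocyanin synthesis and regulation. The labels do not give the flesh or skin colour of any cultivar, and it is unstated if separate plants were used for the 3 libraries of each cultivar, so p-values measure the spread between libraries, which may be technical.

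Plant miRNAs are cut by a Dicer-like enzyme from the stem of a folded precursor as a duplex of a 5p and a 3p strand with short 3′ overhangs. Usually 1 strand is loaded into an Argonaute protein, where it guides the cutting or translational repression of mRNAs that pair with it along most of its length, and the other strand is degraded. In Arabidopsis, AGO1 favours strands that begin with U, and AGO2 and AGO4 favour strands that begin with A. Strands of 22 nt can start the production of secondary, phased small RNAs from their targets. miRNAs found in a single species or genus are often evolutionarily young, weakly expressed and without a known target, and no target is assigned here to any of these sequences.

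The sequences below are those whose levels differed between cultivars or that held most of the counts. They are written 5′ to 3′ with T as in the deposited file, and capitals mark the seed, bases 2 to 8. The first set shows the 4 short sequences of miR8044, since 3 of them were lowest in Longshu No.7 and the other was highest in Red beauty.

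stu-miR8044-5p: tTTCAAATatggttggagatg

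miR8044-x: tCAAATATggccggagatgtt

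stu-miR8044-3p: tCTCCAGCgatatttgaaact

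miR8044-y: tCTCCAGCcatatttgaaagt

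The second set shows the short sequences of miR8036 and miR8033, which include the first and the third most counted members.

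stu-miR8036-3p: tATGTCTTtccgatgcctccca

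miR8036-y: tATGTCTTtccgatgcatccct

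stu-miR8036-5p: gGAGGAATcgaaagatataag

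stu-miR8033-5p: tTCCAAAGctgcagaaatgagt

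miR8033-x: tTCCAAAGctgcagaaattt

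stu-miR8033-3p: tCAATTCTgcagctttaggagt

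The third set shows the other members called in a comparison, followed by the 4 well-counted members with no call.

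stu-miR8032a-5p: tGGTCGGCatgactcccgaggt

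stu-miR8043: tGATATAAttggactttggcc

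stu-miR8038a-5p: cCTTGTGAgtaagttgaatctc

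stu-miR8038a-3p: gTTCAACTtgctcacttggag

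miR8001-x: tCCTGAGAattagtatgaaaa

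miR8008-x: cTAGAAAAgcgacggacagg

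miR7981-x: cGAAATCCcagagacacacc

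miR7981-y: gTGTGACTctgagatttc

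stu-miR8050-3p: tGACTTGAgattcctacttgg

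miR7990-y: tTTTCGAAtggtcgtaact

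The 75 sequences were mostly 21 nt (30 sequences) or 22 nt (25 sequences), with 12 of 20 nt, 4 of 19 nt and 4 of 18 nt. T was the first base in 35 of them (46.7%) and A in 25 (33.3%). Among the other 3830 sequences of 22 nt or shorter, 45.7% began with T and 18.6% with A. Among the 102 sequences of the same number range that were 23 or 24 nt long, 29.4% began with T and 52.0% with A. The median GC content was 38.1% in the short set and 40.9% in the other sequences of that length. In 16 members the seed was shared with a partner of the same number, always in pairs. All but 1 of these pairs joined a potato-named sequence to a less counted one ending in -x or -y, and the exception joined stu-miR8032b-3p and stu-miR8032a-3p.

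Near-copies differed at few bases, counted from 1 at the 5′ end of the first sequence named. The seed partners stu-miR8036-3p and miR8036-y differed by C17A and A22T. The pair stu-miR8033-5p and miR8033-x differed by G19T and A20T. The pair stu-miR8044-3p and miR8044-y differed by G9C and C20G. miR8044-x began 2 bases downstream of stu-miR8044-5p and differed from it by T13C and T14C over the 19 bases they share. Reads of such neighbours may be split between entries by the authors' counting, so each value below is that of an entry.

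The named strands were set against each other as duplexes without gaps, so a bulged base in a strand would lower the number of pairs counted. stu-miR8044-5p faced miR8044-y over 19 positions with 18 Watson-Crick pairs, 1 G-U pair and a 2-nt overhang at both 3′ ends. It faced stu-miR8044-3p with 17 Watson-Crick pairs, 1 G-U pair and 1 unpaired position, and the same overhangs. stu-miR8033-5p and stu-miR8033-3p faced each other over 20 positions with 17 Watson-Crick pairs and 1 G-U pair. Fewer pairs were counted for miR8036, with 12 Watson-Crick and 3 G-U pairs over 19 positions, for miR8050, with 12 and 2 over 19, and for miR8032, with 10 and 4 over 20. Pairing with a bulged base was not tested, so these lower counts do not show that the strands pair more weakly.

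The deposited table gives whole-number counts per entry and library, and the libraries held 5605168 to 7354483 counts in all. The miR165 and miR166 family, which targets HD-ZIP III transcription factors, took 86.4% to 92.5% of them. Levels below are counts per 1e6 counts (CPM) after scaling by the trimmed mean of M values (TMM), and differences were tested with edgeR's quasi-likelihood test in 1 fit over all 12 libraries, with Benjamini-Hochberg adjustment over 1349 tested entries and a threshold of 0.05. Across tested entries, which are not independent replicates and repeat some sequences, Pearson's r of the libraries' log2 CPM was 0.957 to 0.974 within Black kingkong and Red beauty and 0.677 to 0.833 between cultivars. It was 0.861 and 0.865 between Longshu No.7 replicate 3 and the other Longshu No.7 libraries, and 0.902 and 0.924 between LK99 replicate 3 and the other LK99 libraries, so results that rest on these libraries are also given without them.

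The short set was a small part of each library. Its summed count per 1e6 counts was 592 to 740 in Black kingkong, 622 to 739 in LK99, 398 to 427 in Red beauty and 334 to 495 in Longshu No.7. Of the counts left without miR165 and miR166, it made up 0.498% to 0.586% in Black kingkong, 0.543% to 0.565% in LK99, 0.488% to 0.543% in Red beauty and 0.364% to 0.525% in Longshu No.7. Black kingkong and LK99 were therefore above the other cultivars per 1e6 counts, whereas without miR165 and miR166 the ranges of the cultivars lay close together, with Longshu No.7 replicate 3 lowest.

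Few members carried these counts. stu-miR8036-3p alone held 30.8% of the 42491 counts of the 75 sequences, the first 2 held 49.5%, the first 5 held 76.1% and the first 10 held 89.9%. By summed count over the 12 libraries, 8 sequences had 1000 or more, 19 had 100 to 999, 24 had 10 to 99 and 24 had 1 to 9. In all 12 libraries 27 sequences had at least 1 count, and 7 were seen in a single library. Between 44 and 58 sequences were detected per library.

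**Figure D1:**
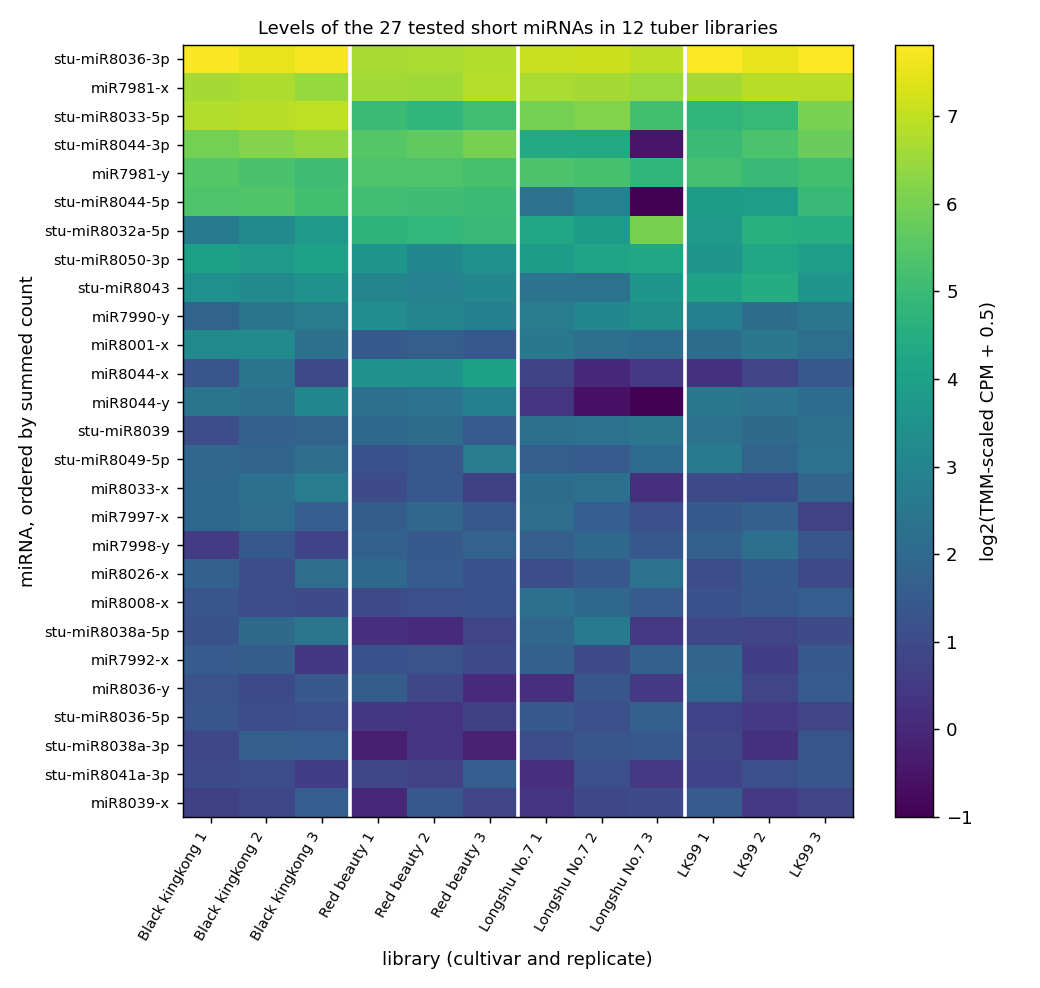
Levels of the 27 short miRNAs that passed the filter on low counts (rows, ordered by summed count) in the 12 tuber libraries (columns, grouped by cultivar), as log2 of TMM-scaled CPM plus 0.5. stu-miR8036-3p, at 101 to 225 CPM, and miR7981-x lead in most libraries, and stu-miR8044-3p, stu-miR8044-5p and miR8044-y are darkest in Longshu No.7 replicate 3.

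The filter on low counts was passed by 27 of the 75 sequences. The other 48 had 1 to 82 counts each, 821 together, which is 1.93% of the counts of the set. The filter acts on single libraries, so a sequence that is high in 1 cultivar can pass through that cultivar alone, and counts of calls are given for description only. Some difference among the 4 cultivars was called for 11 of the 27 tested members, where 57.6% of all 1003 tested sequences were called. The same test called 6 of the 34 tested sequences of the number range with 23 or 24 nt, 49 of 68 potato-named sequences of other numbers, 40 of 102 sequences of other numbers ending in -x, -y or -z and 472 of 773 predicted sequences. In percent this was 40.7% of the short members, 17.6%, 72.1%, 39.2% and 61.1%.

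All 6 pairs of cultivars were compared, and pairs that have a cultivar in common share its libraries. Black kingkong against LK99 called 1 member, where 29.3% of all tested sequences were called; it was higher in Black kingkong (12.6% of all), and 0 were lower (16.7% of all). Red beauty against LK99 called 3 members, beside 32.6% of all, with 1 higher in Red beauty (14.2% of all) and 2 lower (18.4% of all). Longshu No.7 against LK99 called 4 members, beside 17.9% of all, with 0 higher in Longshu No.7 (7.88% of all) and 4 lower (10.1% of all). The members' share, 3.70% and 11.1%, was below the background in the first and the second of these comparisons. In the third, at 14.8%, it was near the background.

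Black kingkong against Longshu No.7 called 8 members, beside 32.8% of all tested sequences, with 6 higher in Black kingkong (14.6% of all) and 2 lower (18.2% of all). Red beauty against Longshu No.7 called 7 members, beside 22.5%, with 3 higher in Red beauty (10.2% of all) and 4 lower (12.4% of all). Black kingkong against Red beauty called 8 members, beside 42.8%, with 6 higher in Black kingkong (21.1% of all) and 2 lower (21.6% of all). In the first and the second of these 3 comparisons the members' share, 29.6% and 25.9%, was near the background, and in the third, at 29.6%, it was below it. The split by direction depended on the scaling. With libraries scaled by their size without miR165 and miR166, 2 members were higher and 5 lower in Black kingkong than in Longshu No.7, 3 higher and 4 lower than in Red beauty, and 1 higher and 4 lower than in LK99, and Red beauty against LK99 gave 1 higher and 1 lower. Over all 1349 tested entries that scaling called 511, 587, 422 and 438 in these comparisons, in this order. With library size alone the splits were 1 higher and 4 lower in Black kingkong against LK99 and 1 higher and 5 lower in Red beauty against LK99, and RLE size factors gave 6 higher and 1 lower in Black kingkong against Longshu No.7. These fits called 433, 492 and 463 of all 1349 entries. Under these scalings calls over all entries were not split by direction. The members' median log2 fold change lay between -0.30 and 0.27 in the 6 comparisons, and that of all tested sequences between -0.09 and 0.05.

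Over all comparisons 14 members were called, 11 of them in the test over all cultivars. The other 3, stu-miR8044-3p, miR8033-x and miR8008-x, were called in pairs alone. The share of all tested sequences called in at least 1 comparison was not computed, so no reading is drawn from this count. In fits without 1 library, the call over all cultivars was lost in 9 of 12 for stu-miR8043 and 6 of 12 for stu-miR8036-5p. It was lost in 5 of 12 for stu-miR8032a-5p and for stu-miR8038a-5p, and in 2 of 12 for stu-miR8038a-3p and for miR8001-x. stu-miR8036-3p, stu-miR8033-5p, stu-miR8044-5p, miR8044-x and miR8044-y kept it in each. DESeq2 did not call stu-miR8036-5p over all cultivars (adjusted p = 0.157). Leaving out Longshu No.7 replicate 3 raised the calls of Black kingkong against LK99 from 1 to 8 and those of Longshu No.7 against LK99 from 4 to 6. Calls over all 1349 tested entries rose too, from 421 to 540 and from 247 to 333. Other single libraries moved the counts as well, and the range over all such fits stands with the results by processing.

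**Figure D2:**
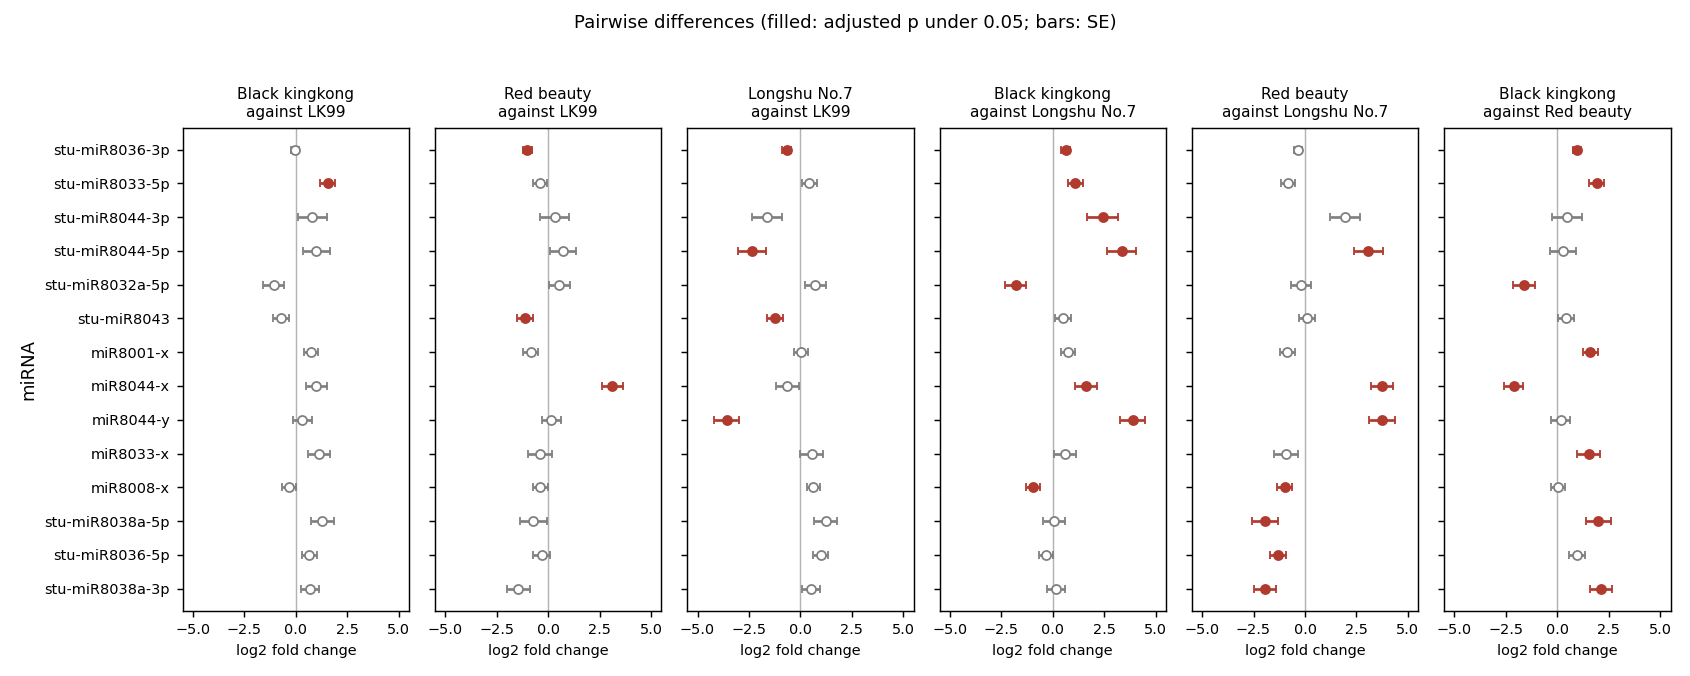
Log2 fold change (first cultivar over second) of the 14 short miRNAs called in at least 1 comparison, for each pair of cultivars; points are edgeR estimates, bars are standard errors and filled points have an adjusted p under 0.05. miR8044-y was called in all 3 comparisons with Longshu No.7, by -3.59 against LK99 and by 3.89 and 3.73 in Black kingkong and Red beauty against Longshu No.7.

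No target of miR8044 is known here. stu-miR8044-5p stood at 41.5, 42.2 and 34.8 CPM in Black kingkong and 33.7, 33.4 and 31.4 CPM in Red beauty. It stood at 14.1, 14.7 and 30.6 CPM in LK99 and 4.42, 6.90 and 0 CPM in Longshu No.7. Every Longshu No.7 library was below every library of the other cultivars, Black kingkong was above Red beauty in each library, and LK99 replicate 3 was about as high as Red beauty while the other LK99 libraries were lower.

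stu-miR8044-5p was higher in Black kingkong than in Longshu No.7 by 3.35 on the log2 scale (SE 0.71, adjusted p = 0.0033), and Red beauty exceeded Longshu No.7 by 3.08 (SE 0.71, adjusted p = 0.0063), by edgeR's quasi-likelihood test. It was lower in Longshu No.7 than in LK99 by a log2 change of -2.35 (SE 0.69, adjusted p = 0.030). Without Longshu No.7 replicate 3 these values were 2.81, 2.54 and -1.82, with adjusted p of 9.7e-05, 3.1e-04 and 0.0027. The call against LK99 was lost without Longshu No.7 replicate 1 (adjusted p = 0.0916) and without LK99 replicate 3 (adjusted p = 0.0758), and with libraries scaled by their size without miR165 and miR166 (adjusted p = 0.0546). It was also lost with the compared cultivars alone (adjusted p = 0.166) and with a replicate block (adjusted p = 0.0518). Black kingkong, Red beauty and LK99 were not called different from each other for this strand, with log2 changes over LK99 of 0.99 (SE 0.64) and 0.73 (SE 0.64).

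miR8044-y, the strand that pairs with stu-miR8044-5p without an unpaired position, followed the same order at a lower level. It stood at 4.73, 4.26 and 8.05 CPM in Black kingkong, 4.19, 4.58 and 6.46 CPM in Red beauty and 5.32, 4.66 and 3.78 CPM in LK99. In Longshu No.7 it had 6, 1 and 0 counts, or 0.759, 0.172 and 0 CPM. Longshu No.7 did not overlap with any other cultivar, while the other 3 cultivars overlapped with each other.

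miR8044-y was lower in Longshu No.7 than in LK99 by a log2 change of -3.59 (SE 0.61, adjusted p = 0.0013), and it was higher in Black kingkong than in Longshu No.7 by 3.89 (SE 0.61, adjusted p = 3.7e-04) and in Red beauty by 3.73 (SE 0.61, adjusted p = 8.3e-04), by edgeR's quasi-likelihood test. These 3 calls were kept in every fit that left out 1 library. Without Longshu No.7 replicate 3 the changes were -3.15, 3.45 and 3.30.

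stu-miR8044-3p was the most counted miR8044 strand, at 62.3, 72.6 and 83.9 CPM in Black kingkong, 44.1, 50.6 and 63.3 CPM in Red beauty and 31.8, 39.3 and 55.2 CPM in LK99. In Longshu No.7 it had 161, 115 and 1 counts, or 20.4, 19.8 and 0.217 CPM. Longshu No.7 was again below every other library, and replicate 3 lacked nearly all of the signal that replicates 1 and 2 held. Only Black kingkong against Longshu No.7 was called for this strand, by 2.42 on the log2 scale (SE 0.75, edgeR adjusted p = 0.025), and the test over all cultivars did not call it. The pair call was lost without Black kingkong replicate 2 (adjusted p = 0.0548) or replicate 3 (adjusted p = 0.0605). It was also lost with size scaling without miR165 and miR166 (adjusted p = 0.0571) and with the compared cultivars alone (adjusted p = 0.0769). Without Longshu No.7 replicate 3, stu-miR8044-3p was called lower in Longshu No.7 than in Black kingkong, Red beauty and LK99, with log2 changes of 1.86, 1.39 and -1.07 in Black kingkong against Longshu No.7, Red beauty against Longshu No.7 and Longshu No.7 against LK99 (adjusted p = 3.1e-04, 0.0027 and 0.014).

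miR8044-x, which overlaps stu-miR8044-5p with 2 base differences, had another order. It stood at 10.9, 10.9 and 15.3 CPM in Red beauty, 2.03, 4.85 and 1.54 CPM in Black kingkong, 0.725, 1.31 and 2.21 CPM in LK99 and 1.26, 0.517 and 0.867 CPM in Longshu No.7. Every Red beauty library was above every library of the other cultivars, and Black kingkong overlapped with LK99. In counts, Longshu No.7 held 10, 3 and 4, so replicate 3 was within the range of the other libraries for this member although it held 0 or 1 counts of the other 3 miR8044 sequences.

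miR8044-x was higher in Red beauty than in LK99 by 3.11 on the log2 scale (SE 0.51, adjusted p = 4.6e-04) and than in Longshu No.7 by 3.74 (SE 0.54, adjusted p = 3.3e-04), by edgeR's quasi-likelihood test. It was lower in Black kingkong than in Red beauty by a log2 change of -2.13 (SE 0.48, adjusted p = 0.0031). These calls were kept in every fit without 1 library. It was also called higher in Black kingkong than in Longshu No.7, by 1.62 (SE 0.56, adjusted p = 0.037). That call was lost without Black kingkong replicate 2, where the change was 0.97 (adjusted p = 0.212), and without Red beauty replicate 2, Longshu No.7 replicate 2 or Longshu No.7 replicate 3 (adjusted p = 0.0503, 0.122 and 0.059), and with size scaling without miR165 and miR166 (adjusted p = 0.0751). The compared cultivars alone and a replicate block also ended it (adjusted p = 0.0552 and 0.0619). The count of stu-miR8044-5p was 2.05 to 3.09 times that of miR8044-x in Red beauty, 8.70 to 22.6 times in Black kingkong and 11.2 to 19.5 times in LK99. In Longshu No.7 it was 3.5, 13.3 and 0 times, on both sides of the Red beauty range.

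**Figure D3:**
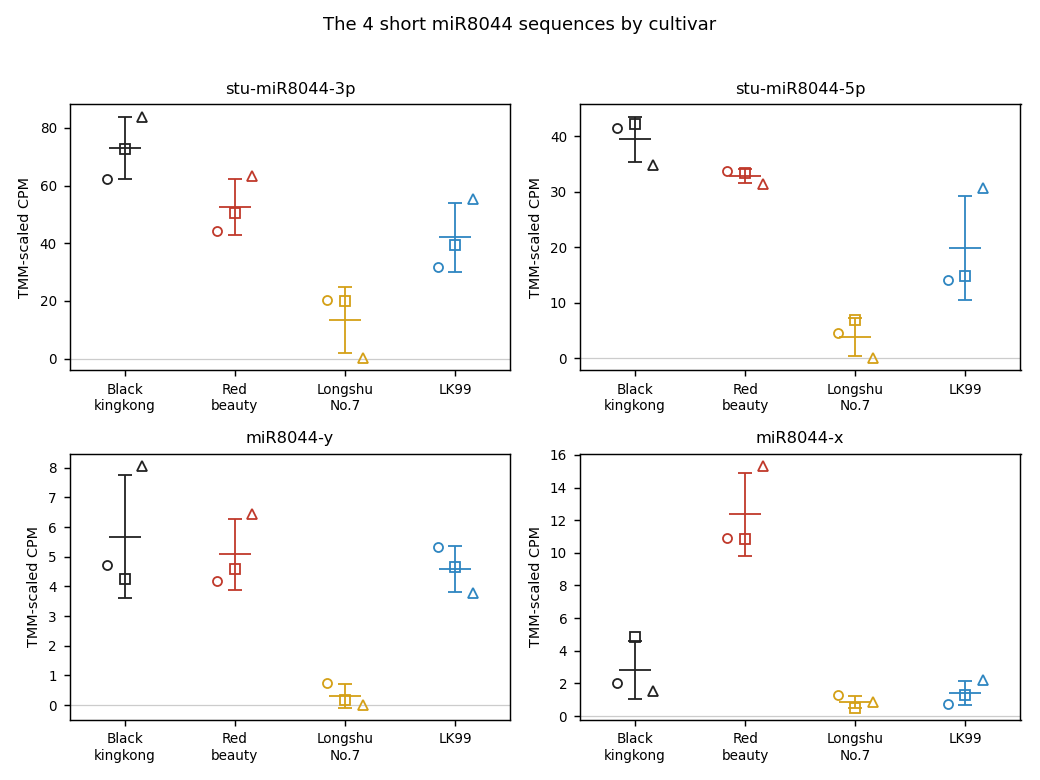
TMM-scaled CPM (y axis, linear, scale set per panel) of the 4 short miR8044 sequences by cultivar; symbols are the 3 libraries (circle 1, square 2, triangle 3), the horizontal line is the mean and bars are the SD (n = 3). stu-miR8044-3p, stu-miR8044-5p and miR8044-y are lowest in Longshu No.7, with replicate 3 at 0.217, 0 and 0 CPM, and miR8044-x is highest in Red beauty.

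Predicted miRNAs of the table overlapped the miR8044 sequences, and 4 are printed to show the overlap. The first pair matches stu-miR8044-5p and stu-miR8044-3p with 1 added base at the 5′ or 3′ end, and in the second pair the 5p strand overlaps miR8044-x over 19 bases with 1 mismatch and the 3p strand contains 17 bases of miR8044-y with no mismatch.

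Predicted 5p strand of the first pair: gTTTCAAAtatggttggagatg

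Predicted 3p strand of the first pair: tCTCCAGCgatatttgaaactt

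Predicted 5p strand of the second pair: aAATATGGccagagatgtttg

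Predicted 3p strand of the second pair: aACATCTCcagccatatttga

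The 5p strand of the first predicted pair had 6, 2 and 0 counts in Longshu No.7, 11, 6 and 12 in Red beauty, 11, 10 and 16 in LK99 and 31, 23 and 28 in Black kingkong, so a Red beauty library was at the count of the highest Longshu No.7 library. Its 3p strand had 13, 9 and 0 counts in Longshu No.7 and 18 to 53 in the libraries of the other cultivars. The 5p strand of the second pair had 4, 1 and 0 counts in Longshu No.7, 69, 78 and 66 in Black kingkong, 41, 44 and 55 in Red beauty and 38, 55 and 40 in LK99, so that Longshu No.7 was again far below the rest. This 5p strand was lower in Longshu No.7 than in LK99 by a log2 change of -4.39 (SE 0.56, edgeR adjusted p = 1.2e-04). Red beauty did not stand above the other cultivars in it, unlike in miR8044-x. The 3p strand of the second pair had 7, 9 and 7 counts in Longshu No.7 and 21 to 72 elsewhere, and replicate 3 was not lower than replicate 1. These entries may count the same molecules as the members and are not independent of them.

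miR8036 contributed the most counted member. stu-miR8036-3p overlaps sequences of the miR482 and miR2118 superfamily, which in other plants pairs with the conserved P-loop region of mRNAs for NLR immune receptors and starts phased small RNAs from them. In the lines printed next, capitals mark the stretch of stu-miR8036-3p that overlaps miR1448-y and miR2118-x, and in those entries the bases identical to it at the same place; the overlap is 18 bases with 2 mismatches each.

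stu-miR8036-3p: tatgTCTTTCCGATGCCTCCCA

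miR1448-y: TCTTTCCtAcGCCTCCCAtacc

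miR2118-x: TtTTcCCGATGCCTCCCAttcc

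The similarity starts 4 bases inside stu-miR8036-3p, so the seeds of these sequences are not the same, and whether stu-miR8036-3p pairs with such mRNAs was not tested. Among well-counted members of that superfamily the nearest was miR482-y, with 3 mismatches over the same 18 bases.

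stu-miR8036-3p stood at 216, 184 and 208 CPM in Black kingkong and 225, 183 and 224 CPM in LK99. It stood at 101, 103 and 110 CPM in Red beauty and 135, 139 and 121 CPM in Longshu No.7. Black kingkong and LK99 overlapped with each other and were above every Red beauty and Longshu No.7 library, and Red beauty was below Longshu No.7 without overlap. The level was 203 ± 16.6 in Black kingkong, 211 ± 24.2 in LK99, 105 ± 4.39 in Red beauty and 132 ± 9.57 CPM in Longshu No.7 (SD, n = 3).

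stu-miR8036-3p was lower in Red beauty than in LK99 by a log2 change of -1.01 (SE 0.21, adjusted p = 0.0022) and lower in Longshu No.7 than in LK99 by -0.68 (SE 0.21, adjusted p = 0.036), by edgeR's quasi-likelihood test. Black kingkong was higher than Red beauty by 0.95 (SE 0.21, adjusted p = 0.0024) and higher than Longshu No.7 by 0.62 (SE 0.21, adjusted p = 0.032). The other pairs were not called different, with log2 changes of -0.05 (SE 0.20) for Black kingkong against LK99 and -0.33 (SE 0.21) for Red beauty against Longshu No.7. The calls of Red beauty against LK99 and of Black kingkong against Red beauty were kept in every fit without 1 library, but the second was lost when libraries were scaled by their size without miR165 and miR166 (0.50, adjusted p = 0.0939). Under that scaling the changes of Black kingkong against Longshu No.7 and Longshu No.7 against LK99 were 0.28 and -0.62, and neither was called (adjusted p = 0.356 and 0.0866). Scaling by library size alone also ended the call of Black kingkong against Longshu No.7 (0.66, adjusted p = 0.0528). The call of Longshu No.7 against LK99 was lost without Black kingkong replicate 2, Red beauty replicate 1, Longshu No.7 replicate 1 or 2, or LK99 replicate 1 or 3 (adjusted p = 0.0551 to 0.104). It was also lost with the compared cultivars alone (adjusted p = 0.140), with no filter (adjusted p = 0.117) and without replicate 3 of both cultivars (adjusted p = 0.0743). The call of Black kingkong against Longshu No.7 was lost without any 1 Black kingkong library or Longshu No.7 replicate 1 or 2 (adjusted p = 0.0544 to 0.0917). The compared cultivars alone and no filter ended it too (adjusted p = 0.0627 and 0.167).

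A predicted miRNA shifted by 1 base, which overlaps stu-miR8036-3p over 21 bases with no mismatch, is printed because its spread across cultivars was wider.

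Predicted 3p strand shifted by 1 base from stu-miR8036-3p: aTGTCTTTccgatgcctcccat

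It had 26, 28 and 25 counts in Black kingkong, 44, 28 and 46 in LK99, 5, 3 and 1 in Red beauty and 3, 8 and 0 in Longshu No.7. Black kingkong and LK99 were above the other cultivars in every library, as for stu-miR8036-3p itself. Its log2 change in Red beauty against LK99 was -3.21 (SE 0.63, edgeR adjusted p = 0.0015), beside -1.01 for stu-miR8036-3p. The difference between these changes was not tested.

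The opposite strand, stu-miR8036-5p, had 0.763 to 1.11 CPM in Red beauty, 0.874 to 1.30 in LK99, 1.62 to 2.03 in Black kingkong and 1.72 to 2.82 in Longshu No.7. It was lower in Red beauty than in Longshu No.7 by a log2 change of -1.30 (SE 0.39, edgeR adjusted p = 0.026), without overlap between these cultivars. That call was lost without Red beauty replicate 1 or 2 or Longshu No.7 replicate 1 or 3 (adjusted p = 0.0513 to 0.0903), and in DESeq2 (adjusted p = 0.106). It was also lost with the compared cultivars alone (adjusted p = 0.0786), with no filter (adjusted p = 0.185) and without replicate 3 of both Longshu No.7 and LK99 (adjusted p = 0.0674).

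miR8033 was led by stu-miR8033-5p, of 22 nt. It stood at 110, 120 and 125 CPM in Black kingkong, 61.7, 69.7 and 34.9 CPM in Longshu No.7, 31.7, 27.7 and 34.3 CPM in Red beauty and 27.4, 29.7 and 65.6 CPM in LK99. Black kingkong was above every library of the other cultivars. Replicate 3 of LK99 was at the level of the higher Longshu No.7 libraries, and replicate 3 of Longshu No.7 was at the level of Red beauty.

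stu-miR8033-5p was higher in Black kingkong than in LK99 by 1.53 on the log2 scale (SE 0.36, adjusted p = 0.0059) and than in Red beauty by 1.92 (SE 0.36, adjusted p = 0.0011), by edgeR's quasi-likelihood test, and both calls were kept in every fit without 1 library. It was higher than in Longshu No.7 by 1.10 (SE 0.35, adjusted p = 0.029). That call was lost without any 1 Black kingkong library or Longshu No.7 replicate 1 or 3 (adjusted p = 0.0543 to 0.0711), and with libraries scaled by their size without miR165 and miR166 (0.71, adjusted p = 0.126). With replicate 3 of both Longshu No.7 and LK99 left out, the changes of Black kingkong over LK99 and over Longshu No.7 were 2.05 and 0.85 (adjusted p = 1.3e-06 and 0.0042), and Longshu No.7 was then also called higher than LK99 (adjusted p = 0.0011).

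The seed partner miR8033-x, 20 nt long, stood at 3.38 to 6.17 CPM in Black kingkong, 1.11 to 2.10 in Red beauty, 0.650 to 4.31 in Longshu No.7 and 1.46 to 3.13 in LK99. Black kingkong and Red beauty did not overlap, and the log2 change between them was 1.52 (SE 0.56, edgeR adjusted p = 0.043). In the test over all cultivars miR8033-x was not called. The call between Black kingkong and Red beauty was lost without any 1 Black kingkong or Red beauty library, Longshu No.7 replicate 1 or LK99 replicate 1 (adjusted p = 0.0511 to 0.140), and with size scaling without miR165 and miR166 (adjusted p = 0.176). A replicate block ended it too (adjusted p = 0.0673). The other strand, stu-miR8033-3p, did not pass the filter, and it is described with the shares of the arms.

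miR8032 is a family in which 7 names share the sequence listed here as stu-miR8032a-5p. This sequence stood at 5.81, 8.67 and 13.2 CPM in Black kingkong, 25.8, 28.2 and 30.6 CPM in Red beauty, 13.2, 23.02 and 22.1 CPM in LK99 and 18.7, 14.0 and 64.4 CPM in Longshu No.7. Black kingkong was lowest, below every Red beauty and Longshu No.7 library and touching LK99, and Longshu No.7 replicate 3 was above every other library.

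stu-miR8032a-5p was lower in Black kingkong than in Longshu No.7 by a log2 change of -1.81 (SE 0.52, adjusted p = 0.016) and than in Red beauty by -1.62 (SE 0.52, adjusted p = 0.023), by edgeR's quasi-likelihood test. Without Longshu No.7 replicate 3 the first change was -0.83 and not called (adjusted p = 0.0753), and it was also lost without Black kingkong replicate 1 or 2 (adjusted p = 0.070 and 0.0578). The compared cultivars alone ended it as well (adjusted p = 0.0509). The second was lost without Black kingkong replicate 1 or 2 or Red beauty replicate 3 (adjusted p = 0.0561 to 0.0921).

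stu-miR8043 stood at 16.4, 21.6 and 11.6 CPM in LK99, 10.3, 8.67 and 11.0 CPM in Black kingkong, 7.55, 7.06 and 7.93 CPM in Red beauty and 4.68, 4.48 and 11.9 CPM in Longshu No.7. LK99 was highest, and its lowest library was passed only by Longshu No.7 replicate 3. The log2 change was -1.13 in Red beauty against LK99 (SE 0.39, edgeR adjusted p = 0.036) and -1.25 in Longshu No.7 against LK99 (SE 0.39, adjusted p = 0.038). The first was lost without any 1 Red beauty library or LK99 replicate 1 or 2 (adjusted p = 0.083 to 0.109) or with size scaling without miR165 and miR166 (adjusted p = 0.0555), and the second without any 1 library except Black kingkong replicate 3, Longshu No.7 replicate 3 and LK99 replicate 3 (adjusted p = 0.0513 to 0.142). The compared cultivars alone also ended the second (adjusted p = 0.160). Without Longshu No.7 replicate 3 the second change was -1.84 (adjusted p = 0.0010).

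Both strands of miR8038 were low in Red beauty. stu-miR8038a-5p stood at 0.671, 0.572 and 1.29 CPM in Red beauty, 1.76, 3.67 and 4.97 CPM in Black kingkong, 3.29, 5.52 and 0.867 CPM in Longshu No.7 and 1.33, 1.31 and 1.56 CPM in LK99. stu-miR8038a-3p stood at 0.336, 0.763 and 0.369 CPM in Red beauty, 1.35, 2.64 and 2.57 CPM in Black kingkong, 1.64, 2.07 and 2.17 CPM in Longshu No.7 and 1.33, 0.728 and 1.95 CPM in LK99. Red beauty did not overlap with Black kingkong in either strand. It overlapped with Longshu No.7 in the 5p strand alone, through replicate 3.

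Black kingkong was above Red beauty by 2.00 on the log2 scale for stu-miR8038a-5p (SE 0.62, adjusted p = 0.019) and by 2.12 for stu-miR8038a-3p (SE 0.53, adjusted p = 0.0054), by edgeR's quasi-likelihood test. Red beauty was below Longshu No.7 by log2 changes of -1.94 (SE 0.62, adjusted p = 0.037) and -1.96 (SE 0.54, adjusted p = 0.017). The stu-miR8038a-3p call against Black kingkong was kept in every fit without 1 library, and that against Longshu No.7 was lost without Red beauty replicate 1 or 3 (adjusted p = 0.0766 and 0.0643). The stu-miR8038a-5p call against Black kingkong was lost without Black kingkong replicate 3 or Red beauty replicate 1 or 2 (adjusted p = 0.0676 to 0.0732) and with size scaling without miR165 and miR166 (adjusted p = 0.0627). That against Longshu No.7 was lost without Black kingkong replicate 2, Red beauty replicate 1 or 2, Longshu No.7 replicate 1 or 2, or LK99 replicate 1 (adjusted p = 0.0503 to 0.166). A replicate block and the compared cultivars alone ended it too (adjusted p = 0.0525 and 0.0674).

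miR8001-x stood at 8.92, 8.67 and 4.28 CPM in Black kingkong and 2.35, 2.67 and 2.21 CPM in Red beauty, with 3.68 to 5.31 CPM in Longshu No.7 and 3.87 to 5.10 CPM in LK99. Red beauty was below every library of the other cultivars, and Black kingkong was above it by 1.59 on the log2 scale (SE 0.36, edgeR adjusted p = 0.0032), a call kept in every fit without 1 library. The call of miR8001-x among the 4 cultivars was lost without Black kingkong replicate 1 or 2 (adjusted p = 0.0544 to 0.0547). It was also lost with libraries scaled by their size without miR165 and miR166 (adjusted p = 0.138). miR8001-x holds a sequence close to the 24-nt stu-miR8001a, with 2 mismatches over 21 bases.

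miR8008-x stood at 4.17, 3.45 and 2.38 CPM in Longshu No.7, 1.81 to 2.60 in LK99, 1.54 to 2.03 in Black kingkong and 1.51 to 1.84 in Red beauty. Longshu No.7 was above Black kingkong and Red beauty in every library. In the test over all cultivars miR8008-x was not called. The log2 changes were -0.95 in Black kingkong against Longshu No.7 (SE 0.33, edgeR adjusted p = 0.041) and -0.99 in Red beauty against Longshu No.7 (SE 0.34, adjusted p = 0.0499). The same sequence is listed a second time as miR8009-y with 76 counts in place of 177, and with that entry neither was called (adjusted p = 0.290 and 0.358). Left-out libraries ended the first call in 8 of 12 fits (adjusted p = 0.0519 to 0.171) and the second in 11 of 12 (adjusted p = 0.0511 to 0.190); Longshu No.7 replicate 3 ended neither. Scaling by library size alone ended the first (adjusted p = 0.0792), and by library size without miR165 and miR166 the second (adjusted p = 0.112). RLE size factors, DESeq2, a replicate block, the compared cultivars alone and no filter each ended both calls. In these the adjusted p was 0.0519 to 0.373 for the first and 0.0516 to 0.274 for the second.

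**Figure D4:**
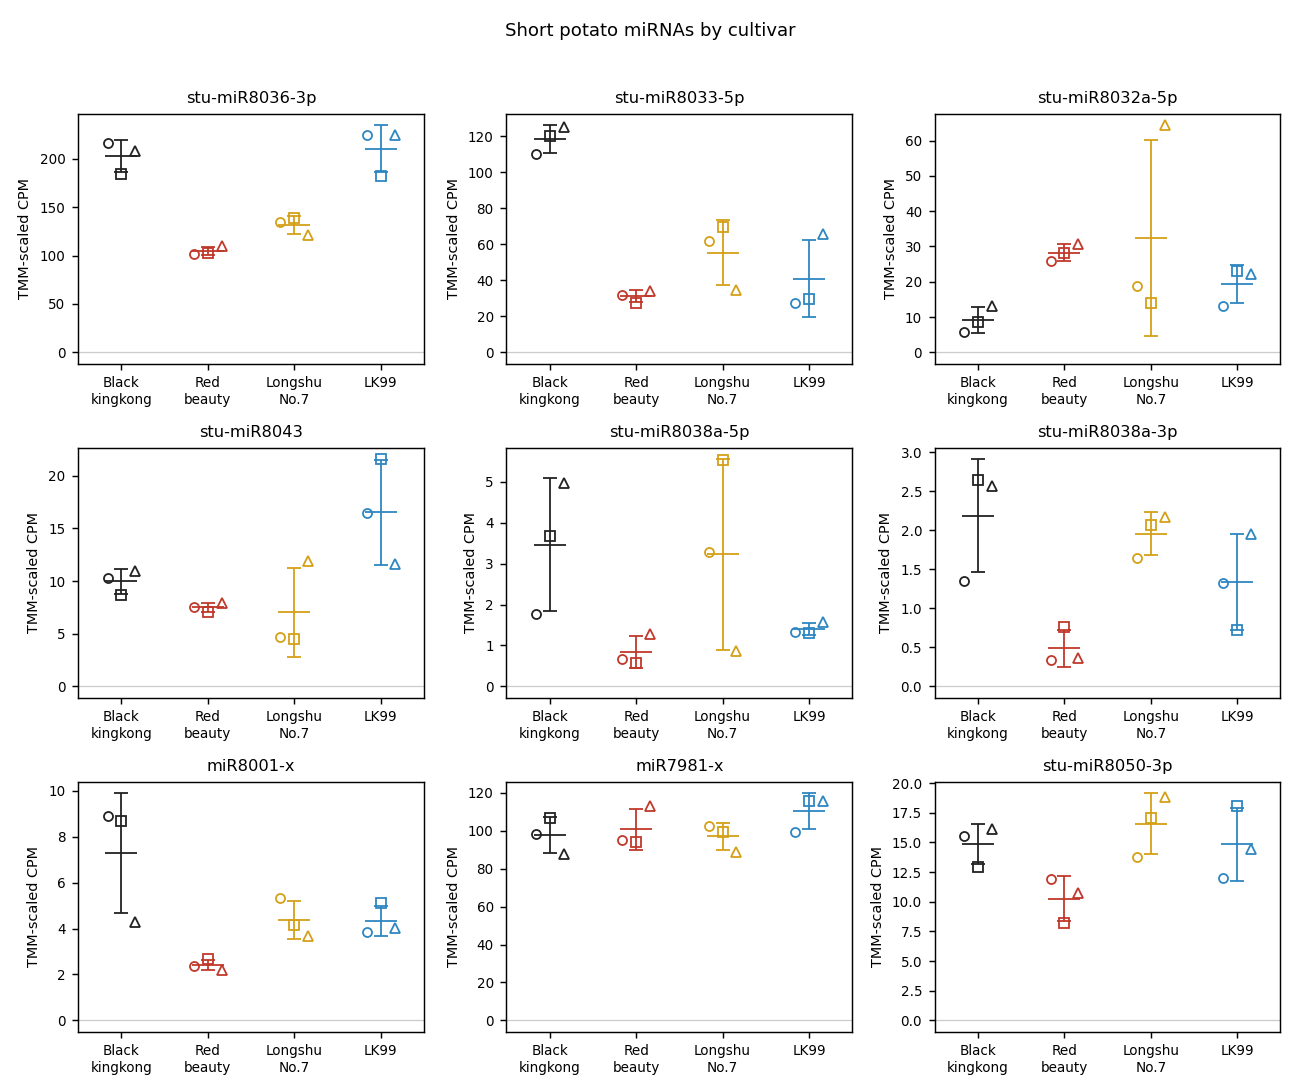
TMM-scaled CPM (y axis, linear, scale set per panel) of 9 short miRNAs by cultivar; symbols are the 3 libraries (circle 1, square 2, triangle 3), the horizontal line is the mean and bars are the SD (n = 3). stu-miR8036-3p is higher in Black kingkong and LK99, stu-miR8033-5p is highest in Black kingkong at 110 to 125 CPM, and miR7981-x lies between 87.9 and 116 CPM in all 12 libraries.

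The 13 tested members with no call in any comparison of the main fit, with TMM scaling, had adjusted p-values of 0.132 to 0.856 in the test over all cultivars. Some of them were called under other scalings. With library size alone, stu-miR8039 was called among the cultivars (edgeR adjusted p = 0.0424) and in Black kingkong against LK99, by -1.10 (adjusted p = 0.0291). In that comparison miR7998-y was called too, by -1.39 (adjusted p = 0.0242). The 13 members include 4 of the 10 most counted sequences. miR7981-x, the second most counted, stood at 98.4, 107 and 87.9 CPM in Black kingkong, 94.9, 94.3 and 113 CPM in Red beauty, 103, 99.5 and 88.9 CPM in Longshu No.7 and 99.3, 116 and 116 CPM in LK99. The 4 cultivars overlapped, and its largest log2 change from LK99 was -0.18 (SE 0.21). miR7981-y stood at 27.1 to 44.6 CPM over the 12 libraries, and the same 18 nt are listed again as miR10532-y with a summed count of 3242 in place of 2874.

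stu-miR8050-3p stood at 8.21 to 11.9 CPM in Red beauty and at 12.0 to 18.9 CPM in the other cultivars. Its Red beauty libraries were below all others, by a log2 change of -0.69 against Longshu No.7 (SE 0.28), which was not called (edgeR adjusted p = 0.0979). With library size alone it was called among the cultivars (adjusted p = 0.0372) and in Red beauty against LK99, by -1.03 (adjusted p = 0.0117). miR7990-y stood at 3.11 to 6.17 CPM in Black kingkong, 3.79 to 6.52 in LK99, 6.46 to 9.56 in Red beauty and 6.19 to 9.97 in Longshu No.7. Black kingkong overlapped with LK99 and lay below every Red beauty and Longshu No.7 library. Its log2 change in Black kingkong against Longshu No.7 was -0.78 (SE 0.36, edgeR adjusted p = 0.108). With libraries scaled by their size without miR165 and miR166, miR7990-y was called lower in Black kingkong than in Longshu No.7 by -1.12 (adjusted p = 0.0282) and than in Red beauty by -1.24 (adjusted p = 0.0142).

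The share of the 5p strand was computed for the 8 numbers with both strands in the set, as 5p counts in percent of the 5p and 3p counts. Of the 7 with at least 100 counts and a count in every library, 2 differed among the cultivars by an exact permutation test of the one-way F statistic over 369600 assignments of the 12 libraries, adjusted over the 7 by Benjamini-Hochberg. The smallest p this test can give is 6.49e-05.

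The 5p share of miR8036 was 0.535%, 0.477% and 0.577% in LK99, 0.930%, 0.870% and 0.816% in Black kingkong, 0.820%, 0.735% and 0.998% in Red beauty and 1.66%, 1.22% and 2.28% in Longshu No.7. LK99 was lowest and Longshu No.7 highest, neither with overlap, and Black kingkong and Red beauty overlapped. The exact permutation test gave p = 5.8e-04 (adjusted p = 0.0041). Without any 1 Black kingkong, Red beauty or LK99 library the adjusted p was 0.0636 to 0.105, and without any 1 Longshu No.7 library it was 0.0041. The shares rest on 26, 36, 15 and 41 counts of the 5p strand in LK99, Black kingkong, Red beauty and Longshu No.7.

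The 5p share of miR8044 was 35.3% ± 5.48 in Black kingkong, 38.7% ± 5.17 in Red beauty, 31.2% ± 4.23 in LK99 and 14.6% ± 13.2 in Longshu No.7 (SD, n = 3). The Longshu No.7 libraries stood at 17.9%, 25.8% and 0%, and the last rests on 1 count. All 3 were below every library of the other cultivars, with an exact permutation p of 0.0072 (adjusted p = 0.025). The adjusted p was 0.130 without Longshu No.7 replicate 3, and 0.0636 to 0.109 without any 1 library of the other cultivars.

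stu-miR8033-3p had 0 counts in Black kingkong beside 2367 counts of stu-miR8033-5p, and 26, 17 and 12 counts in Red beauty, Longshu No.7 and LK99. By library these were 14, 3 and 9 in Red beauty, 7, 8 and 2 in Longshu No.7 and 3, 9 and 0 in LK99, so LK99 replicate 3 equalled Black kingkong. With the 0 replaced by a floor of 3 counts, summed over the 3 libraries, it was 10.5-fold higher in Red beauty, 6.20-fold higher in Longshu No.7 and 3.51-fold higher in LK99. These pooled ratios ignore the spread between libraries and the counting error of the larger count. The 5p strand was highest in Black kingkong. The 5p share of miR8033 was 100% in Black kingkong, with an exact 95% binomial interval from 99.8%, and 95.2% in Red beauty (93.1% to 96.9%). These intervals cover counting error only. The exact permutation test over cultivars gave p = 0.032 (adjusted p = 0.076).

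For miR8032, miR8038, miR8049 and miR8050 the adjusted p of the share was 0.603 to 1. The 5p strand held 98.96% of the miR8032 counts over all libraries, and the share of miR8038 was 60.2% ± 5.02 in Black kingkong and 62.4% ± 17.8 in Red beauty (SD, n = 3).

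**Figure D5:**
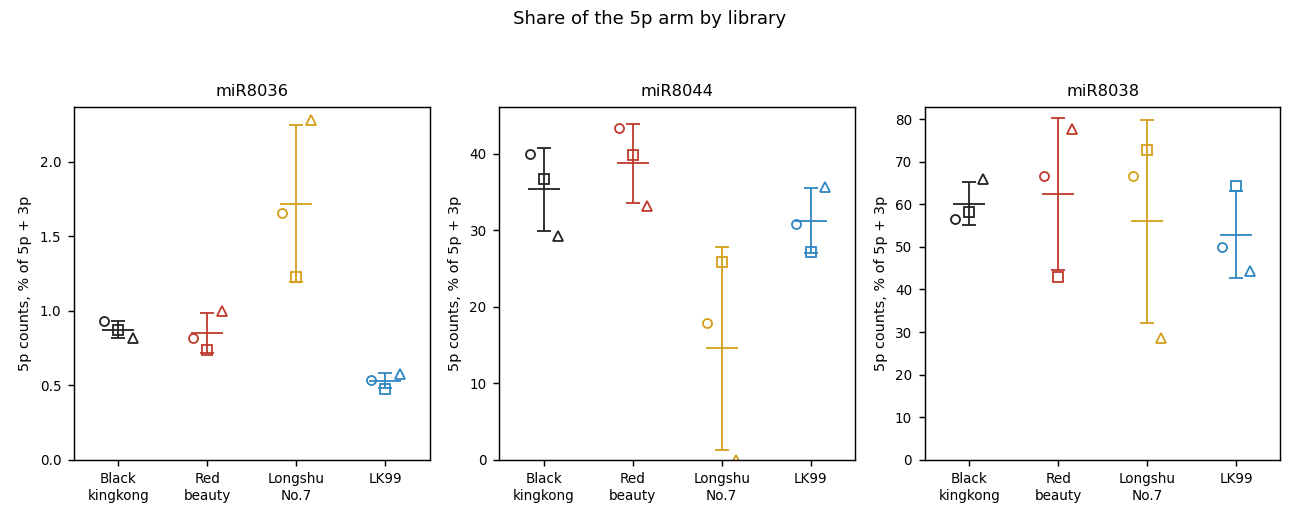
Share of the 5p strand (y axis, 5p counts in percent of 5p and 3p counts, starting at 0) by cultivar for miR8036, miR8044 and miR8038; symbols are the 3 libraries (circle 1, square 2, triangle 3), the horizontal line is the mean and bars are the SD (n = 3). The miR8036 share is lowest in LK99, at 0.477% to 0.577%, and highest in Longshu No.7, at 1.22% to 2.28%.

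The 48 members that did not pass the filter were described by counts, and 21 of them were seen in all 4 cultivars and 10 in a single cultivar. stu-miR8037 and stu-miR8034 were picked after their counts were seen, with stu-miR8033-3p, because their counts were uneven between cultivars. stu-miR8037 had 33 counts in Red beauty, 11 in Black kingkong, 0 in LK99 and 1 in Longshu No.7. With the floor of 3 counts for LK99, it was 15.1-fold higher in Red beauty than in LK99, and its ratio of Red beauty to Longshu No.7 was 36.4, with a 95% counting interval from 6.09 to 1480. stu-miR8034 had 20 counts in Black kingkong, 4 in LK99 and 0 in Red beauty and Longshu No.7. With the floor of 3 counts, it was 5.53-fold and 6.09-fold higher in Black kingkong than in Red beauty and Longshu No.7. Ratios with a floor ignore the spread between libraries and the counting error of the larger count.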

How the data were processed

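The authors deposited whole-number counts per mature miRNA entry and library, per the file headers, in 1 table. A deposited length column, in nt, is of another kind (other). Columns headed TPM were treated as a score and left out, since the deposited values do not sum to 1e6, 1 library is on another scale and zeros are written as 0.01. Gel-cut RNA of 18 to 30 nt was sequenced, per the labels; the sources used here name no aligner, counter, miRBase release or build, so no coordinates are given.

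Counts of all 7827 entries were filtered with filterByExpr (minimum count 10, minimum total 15), which kept 1349 entries with 1003 distinct sequences, and were tested with edgeR 4.0.16 (limma 3.58.1, R 4.3.3), TMM scaling and 1 coefficient per cultivar. Alternatives used DESeq2 1.42.0, other scalings and filters, the compared cultivars alone, a replicate block and fits without each library; leaving out replicate 3 of both Longshu No.7 and LK99 was chosen after seeing the data. Where a sequence has several entries among the members, that with the largest total stands for it. In the shares over all distinct sequences, the entry was chosen the same way among all entries, whatever their name. Called members, the 10 most counted and tested hairpins were named. The script was tested on simulated data. Members and lists were chosen with earlier results of these data known. A count of 0 over a cultivar allows up to 3 counts, or 0.131 to 0.180 CPM. Libraries held 5605168 to 7354483 counts, and intervals cover counting error only. Arm shares and figures were computed with Python 3.11.15.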

Additional observations from a re-analysis of the deposited data

How the results depend on the processing

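None of the 31 pairwise member results changed direction, and tests over all cultivars and of arm shares have no direction. The 44 single results gave 921 pairs of a result and an alternative setting. Of these, 738 stayed past the threshold and 183 did not, and 18 results lost no call in any setting. Some pairs could not change. Using the entry with the smallest total alters only miR8008-x among tested members. For arm shares that setting and a minimum of 50 counts repeat the main test. At least 10 CPM in 3 libraries kept 9 members to test and gave 5 called among the cultivars, 5 in Black kingkong against Longshu No.7, 1 in Red beauty against Longshu No.7 and 3 in Black kingkong against Red beauty. Of all 332 entries tested there, 236, 140, 83 and 183 were called. In Black kingkong against LK99 the calls rose from 1 to 5 with scaling by library size alone, 5 with library size without miR165 and miR166, 3 with no filter and 9 without replicate 3 of both Longshu No.7 and LK99. Over all 1349 entries the first, second and last of these fits called 433, 422 and 538, beside 421 in the main fit. With no filter 707 of 7827 entries were called. Red beauty against LK99 gave 6 calls with library size alone, and 492 over all entries, beside 452 in the main fit. Longshu No.7 against LK99 gave 2 with library size without miR165 and miR166, 1 with the compared cultivars alone and 7 without both of those replicates. Over all entries these fits called 232, 132 and 348, beside 247 in the main fit. The compared cultivars alone gave 3 calls in Black kingkong against Longshu No.7 and 4 in Red beauty against Longshu No.7. Over all entries they gave 390 and 267, beside 463 and 324 in the main fit. The cause was not tested. Scaling by library size alone moved the median log2 change of all tested entries by -0.33 to -0.50 in the comparisons with LK99, and library size without miR165 and miR166 moved it by -0.28 to -0.44 in the comparisons of Black kingkong with LK99, Longshu No.7 and Red beauty.

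Fits without 1 library gave 6 to 13 members called among the cultivars, 1 to 8 in Black kingkong against LK99, 2 to 3 in Red beauty against LK99, 1 to 6 in Longshu No.7 against LK99, 3 to 8 in Black kingkong against Longshu No.7, 3 to 9 in Red beauty against Longshu No.7, 6 to 9 in Black kingkong against Red beauty, and 0 to 3 arm shares. Over all 1349 tested entries the same fits called 675 to 893 among the cultivars. In the 6 pairs in that order they called 289 to 540, 355 to 545, 181 to 333, 340 to 524, 221 to 410 and 453 to 637.

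Libraries with the same replicate number did not deviate together (r from -0.07 to 0.15 over 18 pairs, 2 of them over 0.1, and 5 of 12 libraries correlated best with their own number). With a replicate block 11 members were called among the cultivars and 1, 3, 3, 6, 5 and 7 in the 6 pairs in the order above. Over all 1349 tested entries it called 773 among the cultivars and 403, 461, 219, 465, 299 and 551 in the pairs.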
